A study of Homo sapiens with 8 samples.

Results

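The genes described here encode subunits of the CCR4-NOT complex, which shortens the poly(A) tails of cytoplasmic mRNAs. They were chosen by name, as the rows of the deposited count table for CNOT1, CNOT2, CNOT3, CNOT4, CNOT6, CNOT6L, CNOT7, CNOT8, CNOT10 and CNOT11. Of the 10 named genes, 9 had a row among the 10105 genes of the table, and CNOT6L was not analysed here. Levels were measured in human HEK293T cells, an embryonic kidney-derived line, as mRNA by RNA-Seq and as ribosome-protected fragments (RPFs) by Ribo-Seq. Wild-type (WT) cells were compared with an XRN1-null line made by CRISPR/Cas9, which carries a frameshift deletion in XRN1, the exonuclease that degrades decapped mRNAs from the 5′ end. Cells of both genotypes were untreated and had been seeded 24 h before harvest. Each genotype had 2 biological replicates per assay, 8 libraries in all, and the labels do not say whether they came from separate cultures, so p-values may measure technical spread. In bulk libraries a change in some of the cells cannot be told apart from a smaller change in each. The XRN1-null cells are 1 edited line, so the effects of the genotype and of the line cannot be told apart. The paper proposes that cleaved mRNA fragments with a poly(A) tail build up in XRN1-null cells without being translated. RNA-Seq counts may include such fragments, and their part in the mRNA and RPF-to-mRNA differences below was not tested.

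CCR4-NOT is built on the scaffold protein CNOT1 (NOT1), along which the other subunits are docked as modules. CNOT2 and CNOT3 form the NOT module, CNOT10 and CNOT11 bind the N-terminal part of the scaffold, and the catalytic module pairs a CAF1-type nuclease (CNOT7 or its paralog CNOT8) with a CCR4-type nuclease (CNOT6 or its paralog CNOT6L). CNOT4 is a RING-type E3 ubiquitin ligase that is less tightly bound to the human complex. Deadenylation by this complex is generally followed by decapping and by degradation of the body of the mRNA by XRN1.

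RNA-Seq libraries held 33757487 to 38145433 counts and Ribo-Seq libraries 1921641 to 4399542. Counts of the 9 subunits per library ran from 1012 to 15977 in RNA-Seq and from 29 to 1625 in Ribo-Seq, and the lowest count in each library was that of CNOT4. XRN1 itself had 33.5 and 33.0 CPM (counts scaled to a common library total with TMM factors) in WT RNA-Seq and 282 and 253 in the XRN1-null libraries, whereas its RPF levels were 34.4 and 49.8 CPM in WT cells and 22.6 and 18.4 CPM in XRN1-null cells. A frameshift need not lower the mRNA count, so the mRNA level is no check of the labels. The paper reports that every XRN1 transcript detected in the edited line kept an intron, and describes untranslatable XRN1 intermediates that build up there. Of 8 markers fixed for HEK293T cells, 6 had a row, and they summed to 1050 to 1400 CPM in WT cells and 1130 to 1180 CPM in XRN1-null RNA-Seq. VIM made up most of the sum (means of 855.6 and 817.3 CPM). Among the other markers KRT18 rose 1.40-fold (FDR = 0.0013), NEFM and INA fell to 0.667 and 0.725 of their WT levels (FDR = 0.00455 and 0.00133), and KRT8 and NEFL were not called. Of 10 markers of other cell types, the fibroblast gene COL1A1 had the only row, with 13.9 to 15.4 CPM in WT cells and 36.8 to 37.3 CPM in XRN1-null cells. The part of these differences in the results below was not tested.

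At the mRNA level the subunits differed in their direction. CNOT2, CNOT4 and CNOT10 mRNA rose in XRN1-null cells, to levels 1.253-fold to 1.581-fold those of WT cells, and CNOT11 mRNA fell to 0.796 of its WT level. The other 5 subunits did not pass the threshold, an FDR under 0.005 in the quasi-likelihood test of edgeR, with p-values adjusted over all 10105 genes by the method of Benjamini and Hochberg. Thus 3 of 9 subunits were called higher, where 22.9% of all genes were, and 1 of 9 was called lower, where 23.2% of all genes were. For 8 of 9 subunits the WT and XRN1-null libraries did not overlap, as was the case for 84.7% of all genes. The median log2 fold change of the subunits was 0.30, against -0.01 over all genes. With library totals in place of TMM factors the split of the calls was 5 higher and 0 lower, since CNOT3 and CNOT6 passed the threshold and CNOT11 did not, and over all genes 26.4% were then called higher and 19% lower. DESeq2 and the exact and likelihood ratio tests of edgeR also called CNOT3 and CNOT6 higher, with 26.6%, 28.8% and 28.9% of all genes called higher. The exact and likelihood ratio tests also called CNOT7 lower (FDR = 0.00145 and 0.0014), where they called 29.2% and 29.3% of all genes lower.

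**Figure D1:**
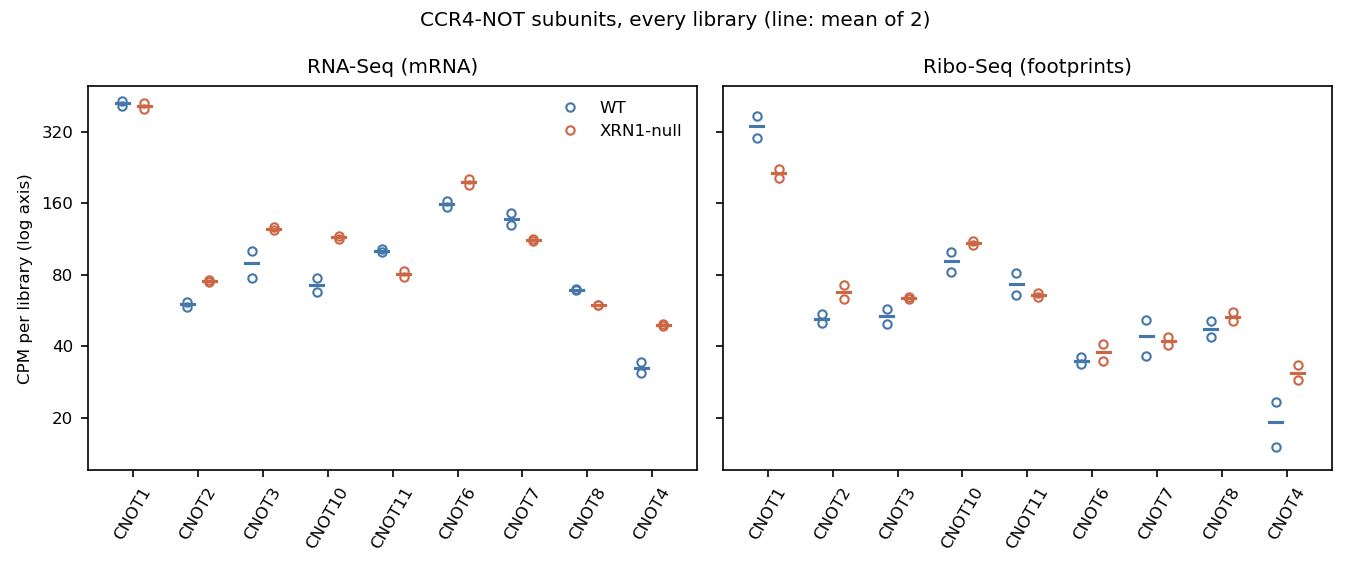
mRNA (left) and RPF (right) levels of the 9 analysed subunits in CPM on a log axis, with 1 open circle per library and a line at the mean of the 2 replicates, WT in blue and XRN1-null in orange. CNOT10 mRNA lies at 68.0 and 77.7 CPM in WT cells and at 114 and 116 CPM in XRN1-null cells, and CNOT1 stands apart on the right, with RPF levels of 303 and 373 CPM in WT against 205 and 223 CPM.

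The genomic windows at the start of CNOT2, CNOT4 and CNOT11 are shown because these are called subunits for which RefSeq (GRCh38.p14) gives a promoter at the gene start. Of the 10 named genes, 8 matched the table of promoter windows, and CNOT1 and CNOT7 did not. Each window holds 250 bases before and 50 after the start, 5′ to 3′ on the strand of the gene, at chr12:70242768-70243067 (plus) for CNOT2, chr7:135510053-135510352 (minus) for CNOT4 and chr2:101252636-101252935 (plus) for CNOT11. Capitals mark GGGCGG (the GC box) and CCAAT on either strand.
CNOT2: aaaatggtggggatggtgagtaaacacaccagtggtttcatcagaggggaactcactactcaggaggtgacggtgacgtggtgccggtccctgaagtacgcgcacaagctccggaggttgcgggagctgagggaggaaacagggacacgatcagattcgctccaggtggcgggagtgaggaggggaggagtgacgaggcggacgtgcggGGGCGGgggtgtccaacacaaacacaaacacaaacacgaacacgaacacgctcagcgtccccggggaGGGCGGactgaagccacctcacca
CNOT4: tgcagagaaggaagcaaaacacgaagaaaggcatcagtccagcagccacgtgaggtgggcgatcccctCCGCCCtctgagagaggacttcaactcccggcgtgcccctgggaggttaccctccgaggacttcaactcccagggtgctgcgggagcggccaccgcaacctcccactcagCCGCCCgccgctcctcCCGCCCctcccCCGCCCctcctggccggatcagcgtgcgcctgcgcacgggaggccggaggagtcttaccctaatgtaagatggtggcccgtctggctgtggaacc
CNOT11: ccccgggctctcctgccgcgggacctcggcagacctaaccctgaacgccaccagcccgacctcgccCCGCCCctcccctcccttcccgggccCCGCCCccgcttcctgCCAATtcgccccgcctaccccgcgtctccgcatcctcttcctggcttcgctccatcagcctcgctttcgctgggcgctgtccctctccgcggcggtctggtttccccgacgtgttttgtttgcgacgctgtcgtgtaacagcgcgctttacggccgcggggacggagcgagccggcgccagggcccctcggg
The GC box occurred 2 times in the CNOT2 window, 4 times in that of CNOT4 and 2 times in that of CNOT11, and CCAAT occurred 1 time, in the CNOT11 window. This GC box is present in 45.0% of the 35116 promoter windows in the table. The table also holds further windows of CNOT2, 415 and 723 nt from the gene start, with 1 and 2 GC boxes and 0 and 1 CCAAT, and 1 window of CNOT10, 10353 nt from the start of that gene, with 0 GC boxes and 3 CCAAT. Of all windows, 34.6% hold CCAAT. The GC content was 60.7% for CNOT2, 66.7% for CNOT4 and 72.0% for CNOT11, against a median of 58.7% over all windows.

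The scaffold CNOT1 (GRCh37, chr16:58553855-58663789, minus strand, 49 exons and 7128 coding nt in its reference transcript) had the highest mean mRNA level per kb of gene width in both genotypes. Its mRNA measured 413 and 431 CPM in WT cells and 422 and 398 CPM in XRN1-null cells. The groups overlapped, and the log2 fold change was -0.04 (SE 0.0649, FDR = 0.601), and it was 0.02 when library totals were used. RPFs of CNOT1, in contrast, were 303 and 373 CPM in WT cells and 205 and 223 CPM in XRN1-null cells. Both XRN1-null libraries were below both WT libraries, and the means were 338.2 ± 49.6 and 213.9 ± 13.1 CPM (SD, n = 2), a 1.587-fold lower level. The log2 fold change of -0.67 (SE 0.148) did not pass the threshold (FDR = 0.0137). It was at or above the values of 7.35% of all genes. The size of this difference depended on the libraries: it was -0.49 (FDR = 1.06e-05) without WT replicate 2 and -0.80 (FDR = 4.9e-15) without WT replicate 1, fits in which the remaining WT library is assumed to vary like the XRN1-null libraries, and the FDR reached 0.231 when an XRN1-null library was left out.

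Translation efficiency (TE), the RPF level divided by the mRNA level, was tested as the assay by genotype interaction over all 8 libraries. This fit gives each gene 1 measure of spread for both assays, although the assays differ in spread. SE and p-values of TE may therefore be too small, and for CNOT2 the SE was 0.14 in TE and 0.148 in RPFs alone. The TE of CNOT1 on the CPM scale was 0.802 in WT cells and 0.521 in XRN1-null cells, a log2 change of -0.63 (SE 0.158, FDR = 0.0319) that did not pass the threshold. CNOT1 exons overlap those of SETD6, a methyltransferase gene on the opposite strand, and whether the counting used the strand is not stated, so reads of the overlap cannot be told apart. SETD6 had 25.6 CPM of RPFs in WT cells and 15.4 CPM in XRN1-null cells. The part of these reads in the CNOT1 difference was not tested.

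In the NOT module, CNOT2 (GRCh37, chr12:70636782-70748773, plus strand) had 58.7 and 61.7 CPM of mRNA in WT cells and 76.1 and 74.7 CPM in XRN1-null cells. The replicates lay close together and the groups apart, and CNOT2 mRNA rose with a log2 fold change of 0.33 (SE 0.0637, FDR = 0.00284). That call was lost without either XRN1-null library, with log2 fold changes of 0.31 (FDR = 0.0433) without replicate 1 and 0.34 (FDR = 0.0307) without replicate 2, and was kept without either WT library (FDR = 3.75e-05 and 3.51e-06). CNOT2 exons overlap the antisense RNA PRANCR, whose reads cannot be told apart. CNOT2 RPFs were 50.0 and 54.7 CPM in WT cells and 72.5 and 63.4 CPM in XRN1-null cells. Both XRN1-null libraries were higher here too, but the log2 fold change of 0.37 (SE 0.148) was not called (FDR = 0.107), and the change of TE was 0.04 (SE 0.14, FDR = 0.9).

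CNOT3, its partner in the module (GRCh37, chr19:54641465-54659419, plus strand), had 77.5 and 101 CPM of mRNA in WT cells and 124 and 127 CPM in XRN1-null cells. Its WT replicates differed more in mRNA than those of any other subunit, with means of 89.4 and 125 CPM in WT cells and XRN1-null cells. Its log2 fold change of 0.49 (SE 0.117) was larger than that of CNOT2 but missed the threshold (FDR = 0.00734). RPFs of CNOT3 were 49.5 and 57.7 CPM in WT cells and 64.8 and 63.4 CPM in XRN1-null cells, a log2 fold change of 0.24 (SE 0.146, FDR = 0.274). The groups did not overlap in either assay. LENG1, whose exons overlap CNOT3 on the opposite strand, had 8.99 CPM of mRNA in WT cells and 10 CPM in XRN1-null cells.

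The pair at the N terminus of the scaffold went opposite ways in mRNA. CNOT10 (GRCh37, chr3:32726637-32815367, plus strand) had 68.0 and 77.7 CPM in WT cells and 114 and 116 CPM in XRN1-null cells, and CNOT11 (GRCh37, chr2:101869348-101886778, plus strand) had 99.9 and 102 CPM in WT cells and 78.2 and 82.9 CPM in XRN1-null cells. All XRN1-null libraries were above WT for CNOT10 and below WT for CNOT11. CNOT10 rose with a log2 fold change of 0.66 (SE 0.079, FDR = 0.000255), the largest among the subunits and at or below the values of 12.6% of all genes. CNOT10 exons overlap the antisense RNA CNOT10-AS1 and the pseudogene SUGT1P2, whose reads cannot be told apart from those of CNOT10 where they overlap. CNOT11 fell with a log2 fold change of -0.33 (SE 0.065, FDR = 0.00294). The CNOT11 call was lost without XRN1-null replicate 1 (-0.29, FDR = 0.0724), without XRN1-null replicate 2 (-0.37, FDR = 0.0256) and with library totals (-0.27, FDR = 0.0071).

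As a share of the summed CNOT10 and CNOT11 mRNA per kb, a quantity chosen after the values were seen, CNOT11 made up 65.4% and 62.8% in WT cells and 46.8% and 47.7% in the XRN1-null libraries. The shares did not overlap, and the difference of -16.8 percentage points had p = 0.333 in the exact two-sided permutation test, the smallest value that 2 against 2 libraries allow. In RPFs the CNOT11 share was 55.9% and 45.7% in WT and 44.6% and 42.6% in XRN1-null libraries, also without overlap, a difference of -7.16 points (p = 0.333, the same exact test). CNOT10 RPFs were 82.3 and 100.2 CPM in WT cells and 107 and 111.1 CPM in XRN1-null cells, without overlap, and the log2 fold change was 0.24 (SE 0.146, FDR = 0.271). RPFs of CNOT11 were 81.3 and 65.7 CPM in WT cells and 67.3 and 64.3 CPM in XRN1-null cells, so that the groups overlapped (log2 fold change -0.13, SE 0.151, FDR = 0.56). The log2 change of TE was -0.43 for CNOT10 (SE 0.155, FDR = 0.122) and 0.20 for CNOT11 (SE 0.151, FDR = 0.451), neither past the threshold.

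Among the nucleases of the catalytic module, none passed the threshold in mRNA, RPFs or TE in the quasi-likelihood test, whereas other tests called CNOT6 mRNA higher and CNOT7 mRNA lower, as given above. CNOT6 (CCR4a; GRCh37, chr5:179921379-180005358, plus strand) had 164 and 155 CPM of mRNA in WT cells and 202 and 191 CPM in XRN1-null cells. Its groups did not overlap, and the log2 fold change of 0.30 (SE 0.0666) had an FDR of 0.00518, just outside the threshold. CNOT6 RPFs were 35.9 and 33.5 CPM in WT cells and 41.0 and 34.6 CPM in XRN1-null cells, and these groups overlapped (log2 fold change 0.14, SE 0.162, FDR = 0.569).

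CNOT7 (CAF1; GRCh37, chr8:17082475-17104387, minus strand) had 145 and 129.7 CPM of mRNA in WT cells and 113 and 110.7 CPM in XRN1-null cells, a log2 fold change of -0.30 (SE 0.0737, FDR = 0.00869). Its pseudogenes CNOT7P1 and CNOT7P2 could share reads with it, as could a lncRNA whose exons overlap on the opposite strand, so its count is uncertain to that extent. CNOT7 RPFs were 51.6 and 36.5 CPM in WT cells and 40.5 and 43.7 CPM in XRN1-null cells. Both XRN1-null values lay between the WT values, and the log2 fold change was -0.02 (SE 0.18, FDR = 0.964).

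CNOT8 (POP2; GRCh37, chr5:154237113-154256352, plus strand), the paralog of CNOT7, had 68.8 and 69.6 CPM of mRNA in WT cells and 59.5 and 59.5 CPM in XRN1-null cells, a log2 fold change of -0.22 (SE 0.0606, FDR = 0.0143). Its exons overlap those of FAXDC2 on the opposite strand. RPFs of CNOT8 were 43.8 and 51.0 CPM in WT cells and 55.6 and 50.9 CPM in XRN1-null cells. The mRNA groups did not overlap and the RPF groups did (log2 fold change 0.15, SE 0.151, FDR = 0.517). The TE of CNOT8 had a log2 change of 0.36 (SE 0.14, FDR = 0.145) and that of CNOT7 one of 0.29 (SE 0.194, FDR = 0.402).

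CNOT7 and CNOT8 take the same place in the complex. CNOT8 made up 40.7% and 43.8% of their summed mRNA per kb of gene width in WT cells and 43.3% and 43.8% in the XRN1-null libraries, a difference of 1.29 percentage points (p = 0.667, exact two-sided permutation test). Of their RPFs per kb of gene width, CNOT8 held 55.2% and 66.9% in WT cells and 66.6% and 62.8% in the XRN1-null libraries, a difference of 3.64 points (p = 1, same exact test). In both assays the ranges overlapped, and with 2 libraries per group no difference could have passed. CNOT8 thus had the smaller mRNA share in every library and the larger RPF share in every library on this scale, but in WT replicate 1 its RPF share was 45.3% per coding kb.

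CNOT4 (GRCh37, chr7:135046547-135194893, minus strand), the ubiquitin ligase, was the least abundant subunit in every library. Its mRNA had 34.2 and 30.8 CPM in WT cells and 49.5 and 48.6 CPM in XRN1-null cells, and rose with a log2 fold change of 0.59 (SE 0.075, FDR = 0.000338). CNOT4 RPFs were 15.1 and 23.2 CPM in WT cells and 33.3 and 28.7 CPM in XRN1-null cells, from 29 to 134 counts per library. Both XRN1-null libraries were higher in both assays, and the RPF log2 fold change of 0.62 (SE 0.204) was not called (FDR = 0.0594). The RPF log2 fold change was 1.06 without WT Ribo-Seq replicate 2 and 0.43 without WT Ribo-Seq replicate 1, so its size depended on which WT library was kept. The change of TE was 0.02 (SE 0.212, FDR = 0.979). The pseudogene CNOT4P1 could share reads with this gene.

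**Figure D2:**
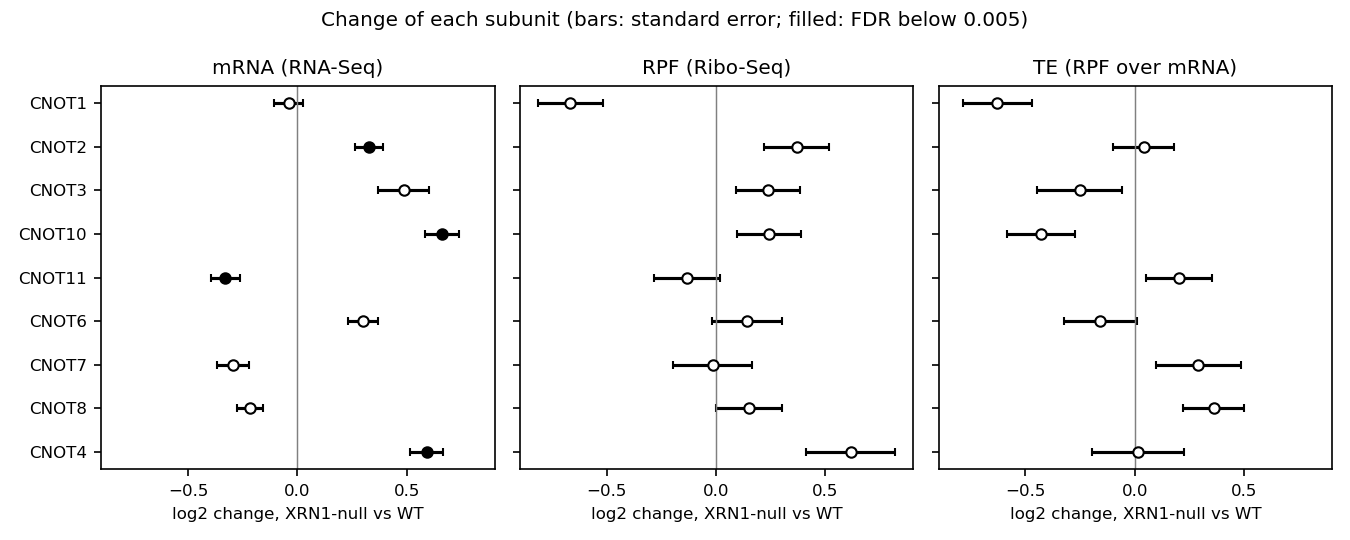
Log2 change between XRN1-null and WT cells for the mRNA (left), the RPFs (middle) and the TE (right) of the 9 subunits, with points at the fitted value, bars for its standard error and filled points for an FDR below 0.005. Filled points occur in the mRNA panel only, for CNOT2 (0.33), CNOT10 (0.66), CNOT11 (-0.33) and CNOT4 (0.59), and the largest negative values are those of CNOT1 in RPFs (-0.67) and TE (-0.63).

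For the RPFs, 0 of 9 subunits were called higher and 0 lower by the quasi-likelihood test of edgeR, where 0.633% and 1.14% of all genes were, and 3 of 9 had an unadjusted p under 0.05 (CNOT1, CNOT2 and CNOT4), as did 33% of all genes. DESeq2 also called 0, while edgeR's exact and likelihood ratio tests each called 1, CNOT1, lower (FDR = 0.00112 and 0.000928), where these tests called 5.62% and 5.9% of all genes lower. The RPF libraries of the genotypes did not overlap for 5 of 9 subunits, against 64.4% of all genes. CNOT2, CNOT3, CNOT4 and CNOT10 were higher in both XRN1-null libraries and CNOT1 lower. The median log2 fold change was 0.15, against -0.0033 over all genes.

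For TE, 0 of 9 subunits were called higher and 0 lower, where 0.0495% and 1.78% of all genes were, and 3 of 9 had an unadjusted p under 0.05 (CNOT1, CNOT8 and CNOT10), as did 23.3% of all genes. By DESeq2, CNOT1 was called, with a log2 change of -0.64 and an FDR of 0.00323, where DESeq2 called 4.48% of all genes lower. The median log2 change of TE was 0.02 for the subunits and 0.01 over all genes.

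**Figure D3:**
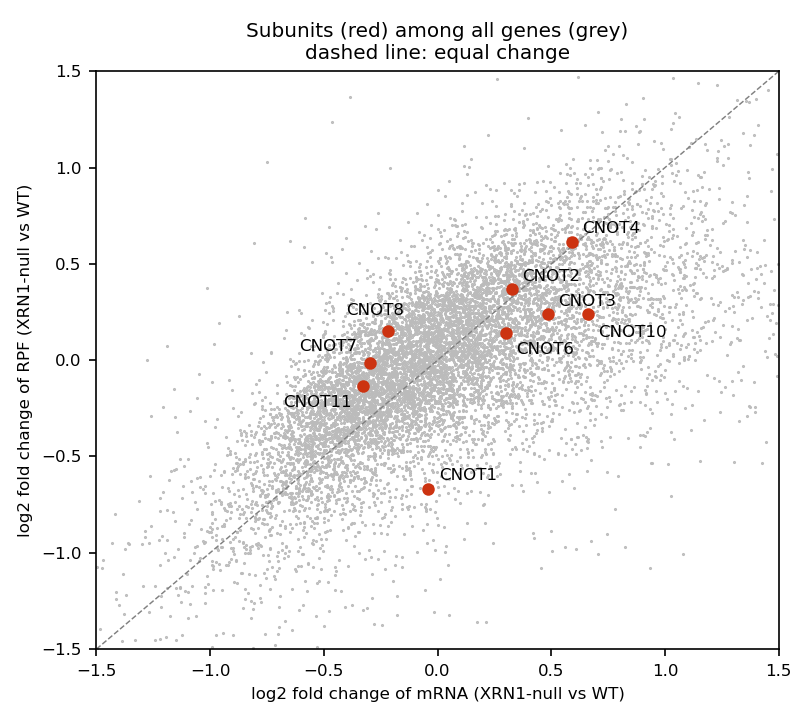
Log2 fold change of the mRNA (horizontal) and of the RPFs (vertical) between XRN1-null and WT cells for the 9 subunits (red, named) and for the other genes (grey), with a dashed line where both are equal. The axes end at 1.5 in each direction, which leaves 271 of the 10105 genes out of view. CNOT4 and CNOT2 lie at the line, and CNOT1 lies below it at -0.04 for mRNA and -0.67 for RPFs.

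Levels of different subunits were compared per kb of the deposited gene width for mRNA. In WT cells CNOT1 led with 46.3 ± 1.35 CPM per kb (SD, n = 2), followed by CNOT11 with 40.2, CNOT7 with 31.9, CNOT3 with 31.0, CNOT6 with 25.2, CNOT8 with 23.3, CNOT10 with 22.6, CNOT2 with 14.6 and CNOT4 with 6.035. Neighbours in this order overlapped between libraries for CNOT7 and CNOT3 and for CNOT8 and CNOT10. In XRN1-null cells CNOT1 (45.0 CPM per kb of mRNA) and CNOT3 (43.4) overlapped at the top, CNOT10 was the third with 35.6, CNOT11 (32.0) and CNOT6 (31.0) overlapped, and CNOT7 (26.0), CNOT8 (20.02), CNOT2 (18.3) and CNOT4 (9.097) followed.

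RPF levels were compared per kb of coding length of the reference transcript, since footprints come from translated sequence. This length differs from the gene width used for the mRNAs, so the RPF and mRNA orders are not on a common scale. The length-scaled TE levels given further below depend on both lengths. The nucleases CNOT8 and CNOT7 led in WT cells with 54.1 and 51.5 CPM of RPFs per coding kb, then came CNOT11 with 48.0, CNOT1 with 47.5 and CNOT10 with 40.9, and each of these overlapped the next. CNOT2 (32.3), CNOT3 (23.7), CNOT6 (20.8) and CNOT4 (8.954) followed without overlap. In XRN1-null cells CNOT8 led with 60.8, CNOT7 (49.2) overlapped CNOT10 (48.9), CNOT11 (43.0) overlapped CNOT2 (41.9), and CNOT1 had 30.01, above CNOT3 with 28.4, CNOT6 with 22.6 and CNOT4 with 14.5. The scaffold stood above CNOT2 in both WT libraries and below it in both XRN1-null libraries on this scale only. Per kb of gene width CNOT1 was first in WT RPFs with 37.1 CPM per kb, ahead of CNOT11 with 29.2, and in XRN1-null RPFs it had 23.5, above CNOT2 with 16.5. With mRNA per coding kb the order also differed, with CNOT7 first in WT cells at 160.7 CPM per kb and CNOT1 at 59.2, below CNOT6, CNOT8 and CNOT11.

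**Figure D4:**
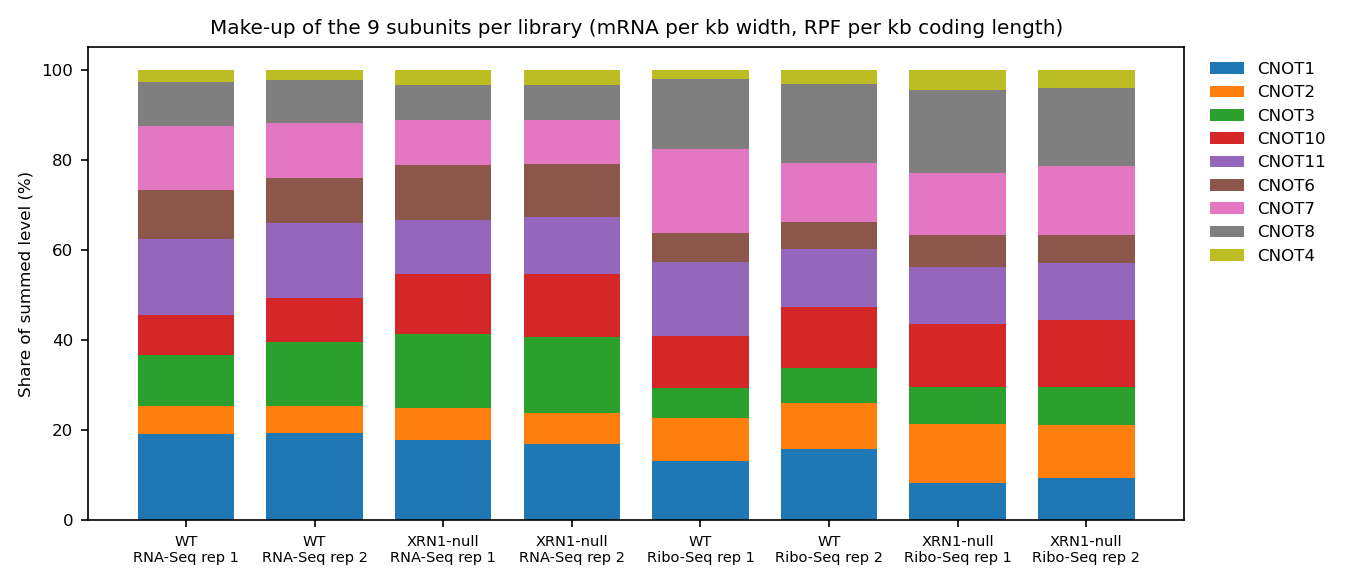
Share of each subunit in the summed level of the 9 subunits, in percent, for each of the 8 libraries, from mRNA per kb of gene width in RNA-Seq and RPFs per kb of coding length in Ribo-Seq. The CNOT1 segment at the base makes up 14.5% of the RPFs on average in WT cells and 8.85% in XRN1-null cells, and the CNOT11 segment of the mRNA 16.7% and 12.3%.

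Summed over the 9 subunits, the mRNA level was 236.3 and 245.8 CPM per kb in WT cells and 261.2 and 259.7 in the XRN1-null libraries, and the RPF level was 324.1 and 331.3 CPM per coding kb in WT cells, against 345 and 333.6 in XRN1-null libraries. On these scales both XRN1-null sums were above both WT sums. For RPFs this direction depended on the scale, since per kb of gene width the sums overlapped (155.5 and 166.5 CPM per kb in WT libraries, 163.1 and 159.8 in XRN1-null libraries), and without a length both XRN1-null sums were lower (686.6 and 683.3 CPM, against 712.6 and 795.7 CPM in WT). CNOT1 made up 19.2% ± 0.028 of the mRNA sum in WT cells and 17.3% ± 0.64 in XRN1-null cells (SD, n = 2), and 14.5% ± 1.9 and 8.85% ± 0.75 of the RPF sum. The share of CNOT10 in the mRNA sum was 9.35% ± 0.62 in WT cells and 13.7% ± 0.29 in XRN1-null cells, that of CNOT11 16.7% ± 0.18 and 12.3% ± 0.57, and that of CNOT7 13.2% ± 1.4 and 9.97% ± 0.12. Shares of 1 sum are tied to each other, so that a rise of some lowers the others.

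TE levels of different subunits depend on the lengths used. With RPFs per coding kb over mRNA per kb of gene width, the TE in WT cells ran from 0.766 for CNOT3 and 0.824 for CNOT6 to 2.21 for CNOT2 and 2.32 for CNOT8, and in XRN1-null cells from 0.654 for CNOT3 and 0.667 for CNOT1 to 2.29 for CNOT2 and 3.04 for CNOT8. CNOT1 had 1.02 in WT and 0.667 in XRN1-null cells and CNOT10 1.81 and 1.37 on this scale, which has no error of its own since RNA-Seq and Ribo-Seq libraries are not matched here. Without lengths, as CPM over CPM, the order in WT cells was another, from 0.217 for CNOT6 to 1.25 for CNOT10, with 0.685 for CNOT8 and 0.87 for CNOT2.

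Other proteins of the deadenylation machinery were described from lists of names. Of the associated proteins CNOT9 (CAF40), a subunit that binds the scaffold, and TNKS1BP1, 0 of 2 were called in mRNA, RPFs or TE by the quasi-likelihood test of edgeR, which called 46.1% of all genes in either direction in mRNA, 1.77% in RPFs and 1.83% in TE. CNOT9 mRNA had 137 and 126 CPM in WT cells and 109 and 103 CPM in XRN1-null cells, a log2 fold change of -0.31 just outside the threshold (FDR = 0.00576), and TNKS1BP1 mRNA had one of -0.39 (FDR = 0.00681). Both had an unadjusted p under 0.05 in RNA-Seq, as had 69.9% of all genes, and an FDR below 0.05, and neither had one in RPFs or TE.

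Of 8 deadenylases outside the complex, 2 were called higher in mRNA and 1 lower, where 22.9% and 23.2% of all genes were, and the median log2 fold change was 0.10. TOE1, a nuclear deadenylase, rose by 1.30 on the log2 scale (SE 0.0636, FDR = 7.36e-06), and PAN3, the adaptor of the PAN2 nuclease, rose by 0.46 (SE 0.0642, FDR = 0.000526). PARN, the poly(A)-specific ribonuclease, fell by 0.50 on the log2 scale (SE 0.0855, FDR = 0.00153). None of the 8 was called in RPFs by edgeR's quasi-likelihood test (1 had an unadjusted p under 0.05, as had 33% of all genes), where 0.633% of all genes were called higher and 1.14% lower. In TE 1 of 8 was called lower, where 1.78% of all genes were, TOE1, which fell by 1.05 (SE 0.161, FDR = 0.00228).

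Proteins that recruit CCR4-NOT to mRNAs or bind it as adaptors had 21 rows of 30 named genes, of which 7 were called higher and 3 lower in mRNA, again beside 22.9% and 23.2% of all genes, with a median log2 fold change of -0.0078. The smallest FDR values were those of NANOS1, a translational repressor, with a log2 fold change of -1.24 (FDR = 4.62e-05), of the helicase HELZ with 1.02 (FDR = 4.87e-05) and of the RNA-binding protein BICC1 with 0.84 (FDR = 6.4e-05). By the same test 0 of 21 were called in RPFs, where 1.77% of all genes were, and 0 in TE, where 1.83% were, with 8 and 4 at an unadjusted p under 0.05, where 33% and 23.3% of all genes were. NANOS1 RPFs were 39.1 and 17.9 CPM in WT cells and 145.5 and 43.4 CPM in XRN1-null cells, with XRN1-null replicate 1 far above the other libraries. Their log2 fold change of 1.89 (SE 0.471, FDR = 0.0213) and the TE change of 3.19 (SE 0.6, FDR = 0.00766) did not pass the threshold, and without that library they were 0.72 (FDR = 0.0737) and 2.02 (FDR = 0.0345).

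The decapping factors and 5′ to 3′ decay partners, XRN1 included, had rows for all 17 names. In mRNA 4 were called higher and 5 lower, shares near the 22.9% and 23.2% of all genes, with a median log2 fold change of -0.20. XRN1 had the largest rise, 3.01 on the log2 scale (FDR = 1.92e-06), the decapping enhancer PATL1 rose by 0.72 (FDR = 6.07e-05), and LSM2, part of the LSM ring, fell by 0.70 on the log2 scale (FDR = 9.92e-05). In RPFs 1 was called higher, the helicase DDX6, a direct partner of CNOT1, with a log2 fold change of 0.92 (SE 0.153, FDR = 0.00435), and 0 lower, where 0.633% and 1.14% of all genes were. DDX6 RPFs were 154 and 199.6 CPM in WT cells and 336 and 336 CPM in XRN1-null cells, without overlap. In TE 1 of 17 was called lower, where 1.78% of all genes were, and 0 higher. The call was that of XRN1, with a log2 change of -4.09 (FDR = 1.66e-06). XRN1 is the edited gene, so its mRNA and TE calls tell nothing about its partners.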

How the data were processed

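The raw counts per gene that the authors deposited for 10105 genes were analysed. Before deposit the authors took out rRNA reads (Bowtie2), mapped to hg19 (TopHat2), kept Ribo-Seq reads of lengths with clear codon periodicity, counted with QuasR and filtered genes on FPKM. Tool versions, the strand setting of the counting and the definition of the gene width are not given in the sources used here. Further deposited tables hold the authors' own comparisons (fold changes, p-values and TE from edgeR and RiboDiff) and were not used.

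Counts were tested by the quasi-likelihood test of edgeR 4.0.16 in R 4.3.3, with TMM factors within each assay, genotype as the only term, and for TE the assay by genotype interaction over 8 libraries. Benjamini-Hochberg adjusted p-values over all genes were called below 0.005. SE is the absolute log2 fold change over the root of F. The biological coefficient of variation was 6.02% (RNA-Seq), 9.84% (Ribo-Seq) and 7.09% (the TE fit over both assays). Counts may include PCR duplicates. Replicates of a group were not duplicates (chi-square per gene 2.006 to 23.97). Alternatives were RLE factors, library totals, joint TMM factors, DESeq2 1.42.0, the exact and likelihood ratio tests of edgeR, a replicate block, a minimum of 10 counts, FDR thresholds of 0.05 and 0.1 and leaving out each library. RPF levels per coding kb and length-scaled TE, and NANOS1 without each library, were added after seeing the data. The test functions were tested on simulated data. Positions and coding lengths came from GENCODE mapped to GRCh37. The genes named are all subunits, XRN1, per list and contrast up to 3 called genes of smallest FDR, and the 3 genes most like the mean of the subunits. CNOT9, TNKS1BP1, SETD6, LENG1, the cell markers named and the CNOT11 share were added after their values were seen. The members and lists were chosen with earlier results of these data known.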

Additional observations from a re-analysis of the deposited data

How the results depend on the processing

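In Ribo-Seq the counts ran from 29 to 1625 per subunit and library, and the part of this depth in the precision of the RPF results was not tested. In mRNA, 5 subunits were called higher instead of 3 (CNOT3 and CNOT6 added) with library totals, DESeq2, edgeR's exact test, edgeR's likelihood ratio test, the replicate block, an FDR of 0.05 and an FDR of 0.1. Called lower instead of 1 were 0 with library totals, 2 (CNOT7 added) with the exact test, the likelihood ratio test and the replicate block, and 3 (CNOT8 also added) at an FDR of 0.05 or 0.1. The median log2 fold change of the mRNAs was 0.3556 with library totals. In RPFs 1 subunit, CNOT1, was called lower with the exact test, the likelihood ratio test, the replicate block (FDR = 0.000358) and at an FDR of 0.05 or 0.1, and 1, CNOT4, higher at 0.1. In TE 1, CNOT1, was called lower with DESeq2, with a block for the replicate number within each genotype (log2 change -0.62, FDR = 0.00156) and at an FDR of 0.05 or 0.1. DESeq2 and this block called 4.48% and 4.3% of all genes lower in TE. RLE factors called 4 higher in mRNA (CNOT6 added, FDR = 0.00468), where 23.8% of all genes were called higher and 21.7% lower. Otherwise RLE factors, a minimum of 10 counts and, for TE, joint TMM factors left the numbers of subunits called as they were. Calls over all genes moved too, from 22.9% to between 26.4% and 28.9% higher in mRNA with the other tests, library totals or the block, from 23.2% to 27.8% to 29.3% lower with the exact and likelihood ratio tests or the block, and in RPFs from 1.14% to 5.62% to 6.58% lower with the same. At an FDR of 0.05 and 0.1, 32.8% and 35.5% of all genes were called higher and 34.2% and 37.7% lower in mRNA, 7.07% and 12.3% higher and 8.38% and 13% lower in RPFs, and 1.02% and 2.86% higher and 6.46% and 9.45% lower in TE.

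Leaving out 1 library gave 2 to 5 subunits called higher and 0 to 3 lower in mRNA (median 0.2565 to 0.339), 0 to 1 higher and 0 to 1 lower in RPFs (median 0.088 to 0.3005) and 0 higher and 0 to 1 lower in TE (median -0.1125 to 0.1095). The CNOT8 share then differed by -0.23 to 2.81 points in mRNA and -2.24 to 9.53 in RPFs. Over all genes these fits called 16.2% to 33.7% higher and 10.9% to 33.5% lower in mRNA, 0.703% to 12.7% and 0.713% to 10.8% in RPFs, and 0% to 0.0891% and 0.188% to 2.28% in TE. NANOS1 ran from 0.7228 to 2.4536 in RPFs and from 2.0199 to 3.7696 in TE, past the threshold in RPFs without either WT Ribo-Seq library or XRN1-null replicate 2 and in TE without XRN1-null Ribo-Seq replicate 2. In these fits the lone library is assumed to vary like the other groups.

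Values near 0 that none of the tests called changed sign. CNOT1 mRNA was 0.0157 with library totals and from -0.0836 to 0.0011 with 1 library left out (above 0 without XRN1-null RNA-Seq replicate 2). CNOT7 RPFs were 0.0023 with library totals, and from -0.2852 to 0.2049 with 1 library left out (0.2049 without WT Ribo-Seq replicate 1 and 0.0258 without XRN1-null Ribo-Seq replicate 1), and CNOT11 RPFs from -0.2897 to 0.0096 (the latter without WT Ribo-Seq replicate 1). CNOT4 TE was -0.0194 with library totals, -0.0286 with joint TMM factors, -0.0085 with a minimum of 10 counts, and -0.1592 to 0.4668 with 1 library left out (below 0 without WT RNA-Seq replicate 1, WT Ribo-Seq replicate 1 or XRN1-null Ribo-Seq replicate 1). CNOT2 TE was -0.0058 with joint TMM factors, and -0.0653 to 0.1355 with 1 library left out (below 0 without WT or XRN1-null Ribo-Seq replicate 1). The cause of these changes was not tested.

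The labels do not say that replicate numbers mark a shared day, so the numbers were not taken as a pairing. With 2 pairs the deviations of same-numbered libraries correlated by 0.19 in RNA-Seq, 0.0803 in Ribo-Seq and 0.0766 in TE. Deviations between the assays under 1 number correlated by 0.355 in WT and 0.0326 in XRN1-null cells. With the replicate block, both associated proteins (CNOT9 and TNKS1BP1) were called lower in mRNA, 4 recruiters higher and 2 lower in RPFs and 1 higher in TE, and 1 decapping partner lower in RPFs. The block called 27.8% of all genes lower in mRNA, 6.1% higher and 6.58% lower in RPFs and 0.0693% higher in TE. At an FDR of 0.05 the recruiters had 4 higher and 1 lower in RPFs and 1 each way in TE. The share of CNOT6L in the CCR4-type nucleases gave no value, as CNOT6L was not analysed here.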

Other observations

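The patterns of the subunit mRNAs and RPFs over the 8 libraries were compared with the mean of the subunits as log2(CPM + 0.5) centred within each assay, as a description without a test. Genes outside the complex were compared where each library held 100 counts or more of them, a minimum not applied to the subunits. The 8 points are 2 replicates of each genotype and assay, so the genes share the libraries, and 9.22% of the 3881 genes compared had a correlation above 0.9. Genes outside the complex that followed the mean most closely were RAD50 (r = 0.993), ZNF326 (r = 0.987) and TNKS2 (r = 0.987). Among the subunits, CNOT2 (0.963), CNOT10 (0.939), CNOT4 (0.935) and CNOT3 (0.93) had high values and are part of the mean themselves. CNOT6 had 0.779, CNOT8 -0.0167 and CNOT1 -0.46, while CNOT7 (-0.797) and CNOT11 (-0.892) ran opposite to the mean. The paralogs CNOT7 and CNOT8 had r = -0.0431 with each other.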
